A study of Mus musculus with 29 samples.

Results

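The genes described here act in the DNA damage and replication checkpoint, in homologous recombination and in the Fanconi anaemia pathway of interstrand crosslink repair. They were named by function and not by a cut on a measured value, though with earlier results of these data known. Of 38 such genes 36 were measured, among 19938 genes in all, each by the probe set that carried only its symbol and had the highest mean over the 27 transfected arrays. Rbbp8 and Xrcc2 had no such probe set and were not analysed here. The cells were C2C12, an immortalised mouse line of muscle precursors (myoblasts) that fuses into multinucleate myotubes when it differentiates. They were at passage 27 and all transfected groups received 50 nM of an oligonucleotide for 36 h, in 3 independent experiments. In all, 7 groups of 3 arrays had received a mimic, of Let-7b, miR-1, miR-145, miR-22, miR-29a, miR-34a or miR-365, that is, a synthetic duplex that acts as the microRNA. The control group had received the AllStar negative control oligonucleotide, with 3 transfections and 3 technical repeat arrays, which gave 3 control values. A single array came from untransfected wild type myoblasts, labelled proliferating and at 70% confluence, and 1 from untransfected, terminally differentiated wild type myotubes. All values come from 1 cell line. The p-values measure the spread between the 3 values within a group, pooled over all transfected groups. The fit did not pair values by replicate number.

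When replication stalls or DNA breaks, the kinases Atr and Atm signal through Chek1 and Chek2 to hold back the cyclin-dependent kinases, through Wee1 and the Cdc25 phosphatases. Broken ends are cut back to single strands, and Brca1, Bard1, Palb2 and Brca2 bring the recombinase to them, which then copies the sister chromatid. Helicases and nucleases such as Blm, Eme1 and Gen1 separate the joined chromatids, and the Fanconi core complex marks Fancd2 and Fanci with ubiquitin at crosslinks. Many of these genes are transcribed mainly in dividing cells, around S phase, and proliferating myoblasts leave the cell cycle before they fuse.

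The arrays were alike in scale, with medians between 7.24 and 7.39 on the log2 scale. All 6 myoblast markers, Myod1 and Des among them, exceeded 6.67, the median of probe sets with no listed gene, in every sample, and no checkpoint or repair gene had a control mean under 6.67. In the array labelled myoblast all 12 of 12 myotube markers were above all 24 transfected values (6.47% of all genes). This touches each comparison with that array. Interferon response genes stood apart in miR-145 replicate 3, by 4.18 on the log2 scale over the control mean. The other miR-145 values were 1.14 and 0.89 over it. Under miR-145 10 of 15 such genes rose, where 3.85% of all genes rose. Markers of endothelial, blood, epithelial and fat cells were under 6.67 in all 24 transfected values for 2 of 4, 2 of 3, 2 of 4 and 2 of 4 measured genes. Fewer cells of a type and less RNA per cell cannot be told apart in these bulk samples.

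The agents themselves are shown because they define the groups. The labels do not give the arm, so the RefSeq mature strands (GRCm38.p6) named for the arm usually meant by these names are printed, with the seed (bases 2 to 8) in capitals. Of 7 mimics 5 matched, and miR-1 and miR-145 are named only.
mmu-miR-34a-5p: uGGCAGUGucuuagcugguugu
mmu-miR-22-3p: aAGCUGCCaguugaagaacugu
mmu-miR-365-3p: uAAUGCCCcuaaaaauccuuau
mmu-miR-29a-3p: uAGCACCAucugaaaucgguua
mmu-let-7b-5p: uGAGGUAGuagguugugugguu
The 5 seeds were all different, so no 2 of these 5 mimics share a seed.

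Under miR-1, 33 of the 36 genes fell and 0 rose at an adjusted p below 0.05 (limma's moderated test over all 19938 genes, Benjamini-Hochberg adjustment within each comparison, 2-sided, 3 values against 3), where 10.5% of all genes fell and 13.2% rose. Their median log2 difference from control was -0.85, with all 36 below 0, against a median of -0.001 over all genes. miR-365 lowered 19 genes and raised 1 (8.33% and 11.7% of all genes), with a median of -0.38. Under miR-34a 18 fell and 0 rose (6.06% and 5.62% of all genes; median -0.32), and under miR-22 13 fell and 0 rose (5.67% and 8.82%; median -0.27). The other three mimics differed little from control: 2 genes fell and 3 rose under miR-29a (4.78% and 5.54% of all genes; median -0.01), 2 fell and 1 rose under Let-7b (5.46% and 5.46%; median -0.08), and 0 fell and 0 rose under miR-145 (3.00% and 3.85%; median -0.09). At an unadjusted p below 0.05 in limma, 4 genes were lower and 0 higher under miR-145, with no share of all genes counted at that cutoff. The 7 comparisons share the control arrays, so they are given side by side and not set against each other.

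**Figure D1:**
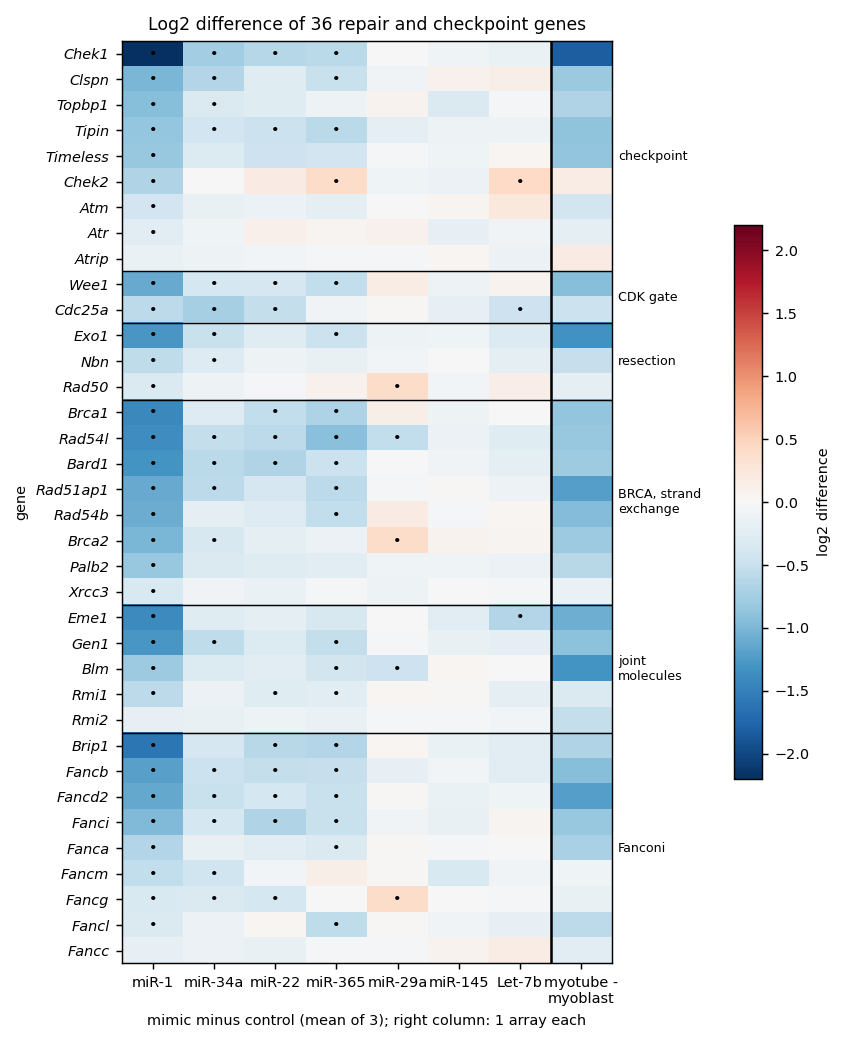
Log2 differences of the 36 measured genes (rows, grouped by role) between each mimic and control, each the mean of 3 values, and in the right column between the single myotube and myoblast arrays. Blue is lower and red higher, and a dot marks an adjusted p below 0.05 in limma; the miR-1 column has dots in 33 of 36 rows, and the right column carries no test.

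How firmly these counts stand differs between mimics. With any 1 miR-1 or control value left out, the miR-1 count lay between 30 and 33. The miR-34a count of 18 went to 9 without miR-34a replicate 2, to 10 without replicate 3 and to 9 without control replicate 1. For miR-22 the count of 13 went to 8 without miR-22 replicate 3 and to 8 without control replicate 1. The count of 20 calls under miR-365 went to 12 without miR-365 replicate 3, and the 5 under miR-29a went to 3 without miR-29a replicate 2, miR-29a replicate 3 or control replicate 3. Leaving out miR-145 replicate 3 gave miR-1 33 calls, miR-365 21, miR-34a 18, miR-22 13, miR-29a 5, Let-7b 4 and miR-145 0. A fit with replicate as a block gave miR-145 2 calls, Topbp1 (-0.32, adjusted p = 0.00379 in limma) and Fancm (-0.34, adjusted p = 0.0416).

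**Figure D2:**
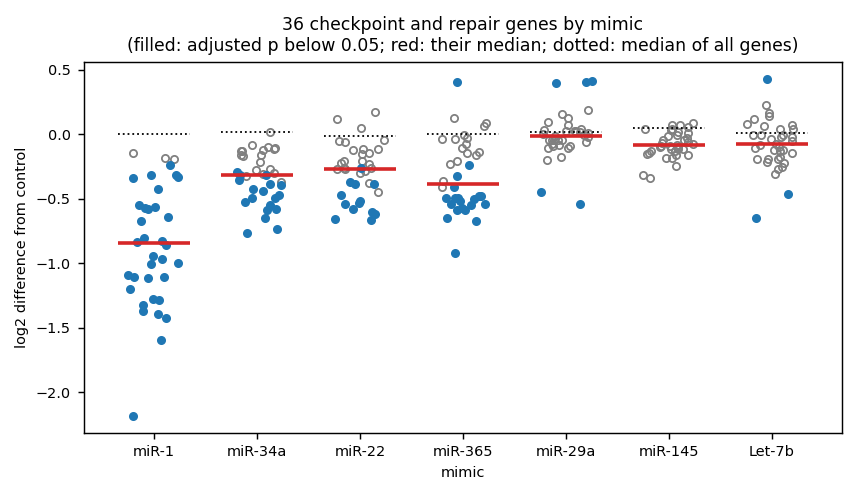
Log2 difference from control (vertical axis) of each of the 36 genes under each mimic, 3 values against 3. Filled points have an adjusted p below 0.05, the red line is the median of the 36 genes and the dotted line that of all 19938; the red line lies at -0.85 for miR-1 and at -0.01 for miR-29a.

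Across the 252 pairs of a gene and a mimic, 87 were called lower and 5 higher. In all, 33 genes fell under at least 1 mimic, 26 under at least 2, 18 under at least 3 and 9 under at least 4. No share of all genes was counted for these overlaps, for the genes listed next or for the lowest group means. The 7 comparisons share the control values, so the overlaps only list the genes and carry no test. Chek1, Tipin, Wee1, Bard1, Rad54l, Fancb, Fancd2 and Fanci fell under all 4 of miR-1, miR-34a, miR-22 and miR-365. Rad54l was the only gene called lower under 5. Another 7 genes were called lower under miR-1 and under no other mimic: Chek2, Atr, Atm, Timeless, Rad50, Palb2 and Xrcc3. A missing call is not a lack of difference, and Timeless lay below all control values under 4 mimics. Atrip, Rmi2 and Fancc passed under no mimic. The lowest group mean of 33 of the 36 genes was that of miR-1, and the highest of the 3 miR-1 values lay below all 3 control values in 34 of them (15.2% of all genes).

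Among the checkpoint signalling genes, 8 of 9 fell under miR-1, 4 under miR-34a, 2 under miR-22 and 3 under miR-365, where 1 rose. Among all genes 10.5%, 6.06%, 5.67% and 8.33% fell under these mimics, in that order, and 11.7% rose under miR-365. Chek1, the kinase that Atr activates and that restrains entry into mitosis, had control values of 10.30, 10.22 and 10.21 and miR-1 values of 8.47, 8.16 and 7.56. All 3 miR-1 values were far below control, and the groups did not overlap. The difference was -2.18 (SE 0.14), 4.54-fold lower, with an adjusted p of 1.26e-09 in limma. This SE rests on a spread pooled over all groups, while the miR-1 values had an SD of 0.46 against 0.05 in control. Exo1, Eme1 and Brip1 likewise had SDs of 0.44, 0.41 and 0.40 under miR-1 against 0.07, 0.08 and 0.05 in control.

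Chek1 was also low under 3 other mimics, at 9.62, 9.42 and 9.40 with miR-34a, 9.59, 9.77 and 9.52 with miR-22 and 9.64, 9.83 and 9.50 with miR-365. Every one of these 9 values lay below the lowest control value, and the differences were -0.76, -0.62 and -0.59 (1.70-, 1.54- and 1.50-fold lower; adjusted p = 0.000785, 0.00407 and 0.00434 in limma). Under miR-29a it was 10.21, 10.19 and 10.36, under miR-145 10.21, 10.06 and 10.18, and under Let-7b 10.19, 10.07 and 10.04. The miR-29a and miR-145 groups overlapped control, the Let-7b values were all just below it, and none of the 3 passed.

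Clspn encodes Claspin, the adaptor that brings Chek1 to Atr at a stalled fork. Its control values were 8.30, 8.04 and 8.30, those under miR-1 7.56, 7.16 and 6.91, and those under miR-34a 7.65, 7.56 and 7.49. Both mimic groups lay wholly below control, with differences of -1.0 (SE 0.13, adjusted p = 5.26e-06) and -0.65 (SE 0.13, adjusted p = 0.00205 in limma). With miR-365 Clspn was 7.69, 7.87 and 7.59, again below all control values (-0.49, adjusted p = 0.00957), but without miR-365 replicate 3 the adjusted p was 0.0610. The miR-22 values of 8.03, 7.95 and 7.87 were only just below the lowest control value and did not pass.

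Other genes of the Atr arm were lower as well under miR-1, though not Atrip. Topbp1, which activates Atr, fell by 0.94 on the log2 scale, and Timeless and Tipin, the pair that travels with and protects the fork, by 0.84 and 0.86 (adjusted p = 2.44e-07, 0.000226 and 1.18e-06 in limma). Tipin also fell under miR-34a, miR-22 and miR-365, by 0.42, 0.47 and 0.59, while Timeless had differences of -0.30, -0.45 and -0.41 there that did not pass. Topbp1 differed by -0.31 under miR-34a (adjusted p = 0.0392), a call that ended in 6 of the alternatives, with adjusted p between 0.0576 and 0.213. The kinases themselves moved less: Atm fell by 0.42 and Atr by 0.24 under miR-1 (adjusted p = 0.000423 and 0.0495), and the Atr call ended in 8 alternatives, with adjusted p between 0.0559 and 0.188. Atrip, the partner of Atr, had a difference of -0.15 under miR-1 and passed under no mimic.

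Chek2, the effector kinase of Atm, went both ways. It stood at 8.27, 8.33 and 8.29 in control and at 7.65, 7.62 and 7.61 under miR-1, which is 1.59-fold lower (-0.67, SE 0.11, adjusted p = 4.41e-05 in limma). Under miR-365 the values were 8.70, 8.56 and 8.84, and under Let-7b 8.71, 8.87 and 8.60. All 6 of these exceeded the highest control value, and Chek2 rose 1.32-fold (0.40, SE 0.11, adjusted p = 0.00803) and 1.35-fold (0.43, SE 0.11, adjusted p = 0.00849). The miR-365 call was lost without miR-365 replicate 3 (0.33, adjusted p = 0.0627) and the Let-7b call without Let-7b replicate 2 (0.36, adjusted p = 0.0612). The remaining groups held 8.35, 8.10 and 8.48 (miR-34a), 8.40, 8.59 and 8.42 (miR-22), 8.13, 8.28 and 8.19 (miR-29a) and 8.41, 8.07 and 8.0 (miR-145), and none of them passed.

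Wee1 and Cdc25a set the brake and the release on cyclin-dependent kinase: Wee1 adds the inhibitory phosphate and Cdc25a removes it. Both fell under miR-1, miR-34a and miR-22. Wee1 was 10.93 ± 0.07 (SD, n = 3) in control and 9.82 ± 0.28 under miR-1, a fall of 1.11 on the log2 scale (adjusted p = 6.18e-08 in limma), and it fell by 0.54 under miR-365. Its differences of -0.38 and -0.37 under miR-34a and miR-22 (adjusted p = 0.0161 for each) did not pass without miR-34a replicate 2 (adjusted p = 0.127), miR-22 replicate 3 (0.0714) or control replicate 1 (0.0708 and 0.0668).

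Cdc25a had its lowest values under miR-34a and not under miR-1. Control values were 11.12, 11.08 and 11.06, and miR-34a values 10.48, 10.21 and 10.35. The miR-1 values were 10.55, 10.40 and 10.56, those of miR-22 10.57, 10.55 and 10.59, and those of Let-7b 10.76, 10.54 and 10.56. These 4 groups lay wholly below control, and Cdc25a fell by 0.74 (SE 0.09, adjusted p = 4.37e-06), 0.58 (2.78e-05), 0.52 (0.000278) and 0.46 (0.00101 in limma) on the log2 scale. It differed less from control under miR-365 (11.05, 10.96 and 11.01), miR-29a (11.03, 10.94 and 11.37) and miR-145 (10.95, 10.84 and 10.91), with no call. Under Let-7b it is 1 of only 2 genes of the 36 that fell.

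**Figure D3:**
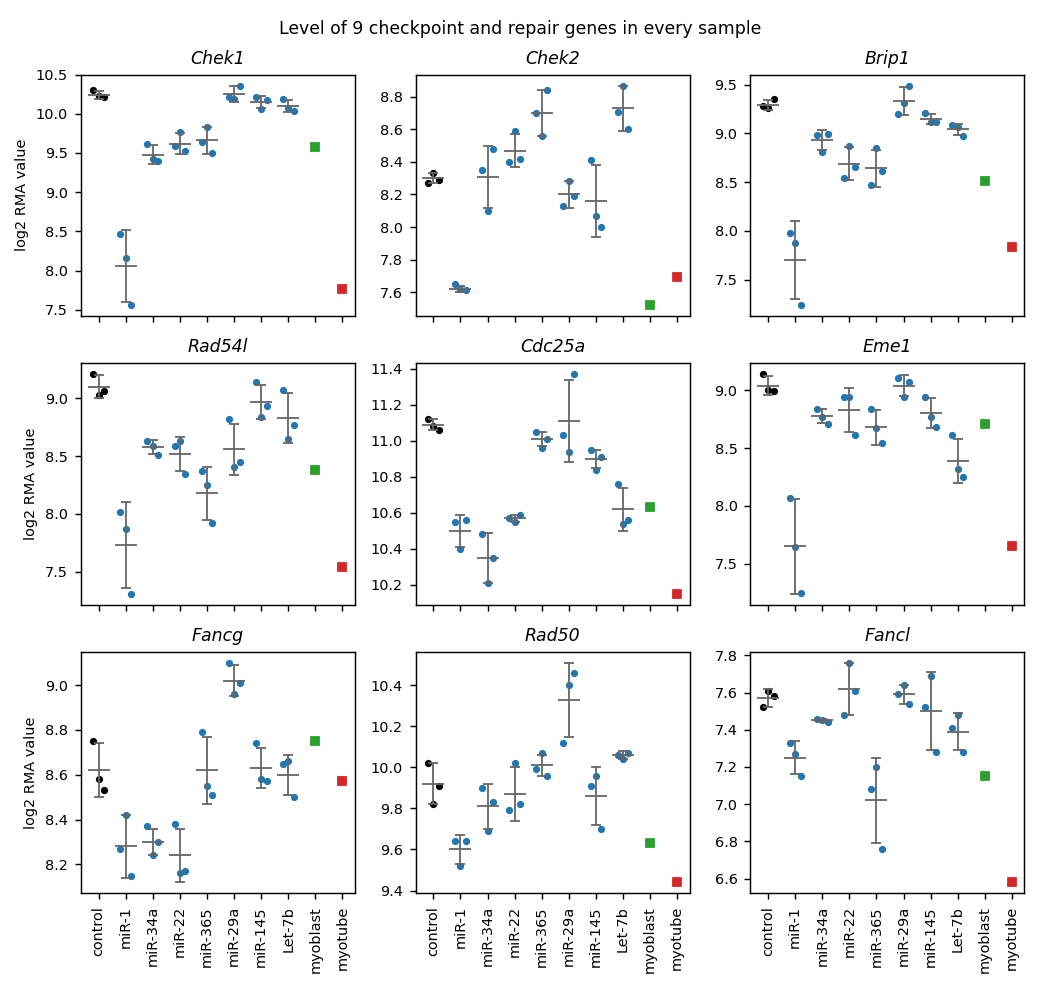
Log2 RMA value (vertical axis, its range differs between panels) of 9 genes in each of the 3 control and 21 mimic values and in the single myoblast and myotube arrays (squares); the cross bar is the mean and the whiskers 1 SD, n = 3. Chek1 under miR-1 lies between 7.56 and 8.47 against 10.21 to 10.30 in control, and Cdc25a is low under miR-34a, miR-1, miR-22 and Let-7b.

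Of the 3 measured genes that act on broken ends, all 3 fell under miR-1, 2 under miR-34a, 0 under miR-22 and 1 under miR-365. The shares of all genes were 10.5%, 6.06%, 5.67% and 8.33%, in that order. Exo1, an exonuclease that cuts back one strand, was 9.48, 9.37 and 9.35 in control and 8.52, 8.19 and 7.65 under miR-1. The groups were far apart, with a difference of -1.28 (SE 0.14, adjusted p = 3.61e-07 in limma), 2.43-fold lower. Under miR-34a Exo1 was 9.02, 8.77 and 8.92 and under miR-365 8.99, 9.04 and 8.73, all below control. It fell by 0.50 (adjusted p = 0.0200) and 0.48 (0.0152), and neither call held without control replicate 1 (adjusted p = 0.0782 and 0.0588); the miR-34a call was also lost without miR-34a replicate 2 (0.0915) or 3 (0.0578) and the miR-365 call without miR-365 replicate 3 (0.106). In miR-22 (9.17, 9.12 and 9.12), miR-29a (9.39, 9.16 and 9.33), miR-145 (9.42, 9.26 and 9.22) and Let-7b (9.16, 9.07 and 9.05) Exo1 did not pass.

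Rad50 and Nbn belong to the complex that first binds a broken end and tethers it. Rad50 was 10.02, 9.82 and 9.91 in control, 9.64, 9.52 and 9.64 under miR-1 and 10.12, 10.40 and 10.46 under miR-29a. The miR-1 values were all below and the miR-29a values all above control, with differences of -0.32 (SE 0.09, adjusted p = 0.0108) and 0.41 (SE 0.09, adjusted p = 0.00399 in limma). Without control replicate 1 the miR-1 difference did not pass (adjusted p = 0.0627). In the other five groups Rad50 lay between 9.69 and 10.07 and did not pass. Nbn fell by 0.57 under miR-1 (adjusted p = 9.84e-06) and differed by -0.29 under miR-34a (0.0166). That second call ended without miR-34a replicate 2, control replicate 2 or control replicate 3 (adjusted p between 0.0613 and 0.0959) and with the mean over all probe sets (-0.12, 0.459). The second Nbn probe set had a Pearson correlation of 0.235 with the one used, over the transfected values.

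All 8 measured genes of the BRCA complexes and of strand exchange fell under miR-1, with a median difference of -1.10. Under miR-34a 4 fell, under miR-22 3 and under miR-365 5. Of all genes 10.5% fell under miR-1, 6.06% under miR-34a, 5.67% under miR-22 and 8.33% under miR-365. Brca1, which with Bard1 forms a ubiquitin ligase that promotes recombination, had control values of 9.27, 9.05 and 9.10, miR-1 values of 8.03, 7.70 and 7.41 and miR-365 values of 8.54, 8.66 and 8.19. Both mimics kept every value below control, with differences of -1.43 (SE 0.14, 2.69-fold lower, adjusted p = 1.27e-07) and -0.68 (SE 0.14, 1.60-fold lower, adjusted p = 0.00119 in limma). Under miR-22 it was 8.62, 8.83 and 8.34, a difference of -0.54 (adjusted p = 0.0101) that did not pass without miR-22 replicate 3 (0.0971) or control replicate 1 (0.0522). Brca1 was 9.00, 8.71 and 8.87 under miR-34a, 9.27, 9.19 and 9.33 under miR-29a, 9.16, 9.07 and 8.85 under miR-145 and 9.21, 9.07 and 9.12 under Let-7b. It passed under none of these 4, although the miR-34a values were all below control.

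Bard1 was 10.21, 9.99 and 10.02 in control, 9.02, 8.75 and 8.49 under miR-1 and 9.36, 9.49 and 9.38 under miR-22. It was also below every control value under miR-34a (9.54, 9.48 and 9.44) and miR-365 (9.47, 9.72 and 9.59). Bard1 fell by 1.32, 0.67, 0.59 and 0.48 on the log2 scale under miR-1, miR-22, miR-34a and miR-365 (SE 0.12 each, adjusted p = 4.04e-08, 0.000440, 0.00174 and 0.00504 in limma). Values of 10.08, 9.97 and 10.17 (miR-29a), 10.05, 9.70 and 10.23 (miR-145) and 9.97, 9.90 and 9.78 (Let-7b) gave no call.

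Palb2, which joins Brca1 to Brca2, fell by 0.83 under miR-1 (adjusted p = 3.40e-05 in limma) and passed under no other mimic. Brca2, the loader of the recombinase, was 8.74, 8.50 and 8.50 in control, 7.77, 7.64 and 7.33 under miR-1 and 8.81, 9.05 and 9.11 under miR-29a. The miR-1 values lay wholly below and the miR-29a values wholly above control, a 2.00-fold fall (-1.0, SE 0.11, adjusted p = 3.98e-07) and a 1.33-fold rise (0.41, SE 0.11, adjusted p = 0.0165). The rise was lost without miR-29a replicate 2 or 3 or control replicate 2 or 3, with adjusted p between 0.0751 and 0.0993. Under miR-34a Brca2 was 8.37, 8.15 and 8.17 (-0.35, adjusted p = 0.0367), a call lost in 5 alternatives with adjusted p between 0.0525 and 0.198. It did not pass under miR-22 (8.43, 8.50 and 8.19), miR-365 (8.43, 8.54 and 8.36), miR-145 (8.65, 8.70 and 8.61) or Let-7b (8.65, 8.71 and 8.59).

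Rad54l encodes a motor protein that helps the recombinase invade the partner duplex. Its control values were 9.21, 9.03 and 9.06, with 8.02, 7.87 and 7.31 under miR-1 and 8.37, 8.25 and 7.92 under miR-365. Every value of both mimics was lower than control. Rad54l fell by 1.37 (SE 0.15, 2.58-fold, adjusted p = 6.37e-07) and by 0.92 (SE 0.15, 1.89-fold, adjusted p = 0.000127 in limma) on the log2 scale. The latter is the largest fall of any of the 36 genes under miR-365.

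Rad54l was lower in 3 further groups: 8.63, 8.59 and 8.51 under miR-34a, 8.59, 8.63 and 8.35 under miR-22 and 8.82, 8.41 and 8.45 under miR-29a. None of these 9 values reached the lowest control value, and the differences were -0.52, -0.58 and -0.54 (adjusted p = 0.0276, 0.0123 and 0.0244 in limma). All 3 calls ended in leave-outs, in each of which the difference stayed at -0.47 or lower. The miR-34a call did not pass with any 1 of the 6 values left out (adjusted p between 0.0520 and 0.110), the miR-22 call without miR-22 replicate 3 (0.0873) or control replicate 1 (0.0552), and the miR-29a call in 4 leave-outs (between 0.0612 and 0.128). With miR-145 (9.14, 8.84 and 8.93) and Let-7b (9.07, 8.65 and 8.77) Rad54l overlapped control.

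Rad51ap1, a partner of the recombinase in joint formation, was 8.62, 8.55 and 8.63 in control, 7.83, 7.53 and 7.12 under miR-1, 7.93, 8.12 and 8.01 under miR-34a and 8.13, 8.19 and 7.76 under miR-365. None of these groups overlapped control, and Rad51ap1 fell by 1.11, 0.58 and 0.57 on the log2 scale (SE 0.14 each, adjusted p = 2.20e-06, 0.00650 and 0.00400 in limma). It was 8.09, 8.34 and 8.24 under miR-22, 8.67, 8.41 and 8.59 under miR-29a, 8.73, 8.72 and 8.41 under miR-145 and 8.57, 8.38 and 8.52 under Let-7b, with no call. Rad54b, a relative of Rad54l, fell by 1.09 under miR-1 and by 0.54 under miR-365 (adjusted p = 9.21e-07 and 0.00312). Xrcc3, a relative of the recombinase, had a difference of -0.33 under miR-1 (adjusted p = 0.0219), which did not pass without miR-1 replicate 3 (-0.20, adjusted p = 0.218), in 2 control leave-outs (0.0514 and 0.0760) or with only the 2 groups in the fit (0.0906).

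Among the genes that undo joined chromatids, 4 of 5 fell under miR-1, 1 under miR-34a, 1 under miR-22 and 3 under miR-365. The shares of all genes were 10.5%, 6.06%, 5.67% and 8.33%, in that order. Eme1, the partner of the Mus81 nuclease, was 9.14, 9.00 and 8.99 in control, 8.07, 7.64 and 7.25 under miR-1 and 8.61, 8.32 and 8.25 under Let-7b. Both sets lay wholly below control, at -1.39 (SE 0.14, 2.63-fold lower, adjusted p = 2.04e-07) and -0.65 (SE 0.14, 1.57-fold lower, adjusted p = 0.00357 in limma). Eme1 had the largest fall of the 36 genes under Let-7b. It was also below all control values, with no call, under miR-34a (8.84, 8.77 and 8.71), miR-22 (8.94, 8.94 and 8.61), miR-365 (8.84, 8.67 and 8.54) and miR-145 (8.94, 8.77 and 8.68), while miR-29a (9.11, 8.94 and 9.07) overlapped control.

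Blm is the helicase that, with Rmi1 and Rmi2, dissolves double Holliday junctions. It was 8.83, 8.84 and 8.90 in control, 8.22, 8.11 and 7.82 under miR-1 and 8.45, 8.38 and 8.38 under miR-29a. No value of either mimic reached control, and Blm fell by 0.81 (SE 0.11, adjusted p = 7.35e-06) and 0.45 (SE 0.11, adjusted p = 0.00873 in limma) on the log2 scale. Under miR-365 it was 8.47, 8.63 and 8.25 (-0.41, adjusted p = 0.00953), which did not pass without miR-365 replicate 3 (-0.31, 0.0877). Blm did not pass under miR-34a (8.56, 8.47 and 8.62), miR-22 (8.48, 8.83 and 8.56), miR-145 (8.88, 9.00 and 8.80) or Let-7b (8.77, 9.03 and 8.75).

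Rmi1 fell by 0.57 under miR-1 (adjusted p = 1.96e-06 in limma) and differed by -0.26 under miR-22 and -0.24 under miR-365 (0.0130 and 0.0171), both calls that ended without control replicate 1 (0.0501 and 0.0621). The miR-22 call also ended without miR-22 replicate 1 (0.0767) and the miR-365 call without miR-365 replicate 3 (0.0652) or control replicate 2 (0.0517). Rmi2 was 7.15 ± 0.07 (SD, n = 3) in control and 6.96 ± 0.20 under miR-1 and passed under no mimic. Gen1, a nuclease that resolves Holliday junctions, fell by 1.28 under miR-1, 0.55 under miR-34a and 0.52 under miR-365 (adjusted p = 1.27e-07, 0.00486 and 0.00456).

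Of the 9 Fanconi pathway genes 8 fell under miR-1, 5 under miR-34a, 5 under miR-22 and 6 under miR-365. Among all genes 10.5%, 6.06%, 5.67% and 8.33% fell under these mimics, in that order. Brip1, a helicase that binds Brca1, fell most after Chek1 under miR-1. Its control values were 9.28, 9.26 and 9.35 and its miR-1 values 7.98, 7.88 and 7.24. With miR-365 Brip1 was 8.47, 8.85 and 8.61, and with miR-22 8.54, 8.87 and 8.65. All 9 values were below control, with differences of -1.60 (SE 0.14, 3.02-fold lower, adjusted p = 2.12e-08), -0.65 (0.00122) and -0.61 (0.00330 in limma). The miR-34a values of 8.98, 8.81 and 8.99 were below control without passing, as were those of miR-145 (9.21, 9.12 and 9.12) and Let-7b (9.09, 9.06 and 8.97), and miR-29a (9.20, 9.31 and 9.49) overlapped it.

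Fancd2 and Fanci form the clamp that the core complex marks with ubiquitin. Fanci was 8.60, 8.43 and 8.44 in control, 7.55, 7.64 and 7.37 under miR-1 and 7.86, 8.0 and 7.64 under miR-22. It was 8.08, 8.10 and 8.12 under miR-34a and 7.96, 8.17 and 7.85 under miR-365. In all 4 mimics each value was below control, and Fanci fell by 0.97, 0.66, 0.39 and 0.49 on the log2 scale (SE 0.09 each, adjusted p = 6.09e-08, 2.50e-05, 0.00566 and 0.000349 in limma). The rest were 8.40, 8.35 and 8.47 (miR-29a), 8.31, 8.34 and 8.33 (miR-145) and 8.60, 8.54 and 8.52 (Let-7b), with no call.

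Fancd2 was 9.02, 8.74 and 8.72 in control, 7.97, 7.79 and 7.37 under miR-1, 8.39, 8.33 and 8.28 under miR-34a and 8.38, 8.54 and 8.07 under miR-365. All 3 groups were below control, and Fancd2 fell by 1.12 (adjusted p = 6.36e-07), 0.49 (0.0108) and 0.49 (0.00611 in limma). The miR-34a call was lost without miR-34a replicate 3 (0.0527) or control replicate 1 (0.0759), and the miR-365 call without miR-365 replicate 3 (0.0664). Under miR-22 the values were 8.43, 8.57 and 8.31 (-0.39, adjusted p = 0.0401), which did not pass in 6 alternatives (0.0528 to 0.194). Fancd2 overlapped control under miR-29a (8.87, 8.87 and 8.80) and Let-7b (8.81, 8.78 and 8.59) and was 8.71, 8.68 and 8.64 under miR-145, with no call.

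Fancg, a scaffold of the core complex, was 8.75, 8.58 and 8.53 in control and 9.10, 8.96 and 9.01 under miR-29a. It rose 1.32-fold there (0.40, SE 0.09, adjusted p = 0.00564 in limma), with all 3 values above control. Under miR-22 Fancg was 8.38, 8.16 and 8.17 and fell by 0.38 (SE 0.09, adjusted p = 0.00564). It was 8.27, 8.42 and 8.15 under miR-1 and 8.37, 8.24 and 8.30 under miR-34a, all below control, with differences of -0.34 (0.00755) and -0.32 (0.0247). The miR-1 call ended without miR-1 replicate 3 (0.0610) or control replicate 1 (0.0539), and the miR-34a call in 4 leave-outs (0.0510 to 0.139). Fancg values under miR-365 (8.79, 8.55 and 8.51), miR-145 (8.74, 8.58 and 8.57) and Let-7b (8.65, 8.66 and 8.50) overlapped control.

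Fancl, the ubiquitin ligase of the core complex, was 7.57 ± 0.05 (SD, n = 3) in control and 7.02 ± 0.23 under miR-365, where it fell by 0.55 (adjusted p = 0.000468 in limma). It is the only gene of the 9 that was lower under miR-365 than under miR-1 (7.25 ± 0.09; -0.32, adjusted p = 0.0282), and its miR-1 call ended without miR-1 replicate 3 (0.132), without control replicate 2 or 3 (0.0925 and 0.0746) and with a further quantile normalization (0.0547). Fancb, another core subunit, fell by 1.20 under miR-1 (1.09e-06) and had differences of -0.48, -0.53 and -0.50 under miR-34a, miR-22 and miR-365 (0.0292, 0.0120 and 0.0125). These 3 calls ended in 6, 3 and 2 leave-outs (adjusted p from 0.0533 to 0.110). Fanca fell by 0.64 under miR-1 (7.01e-05) and differed by -0.32 under miR-365 (0.0333), a call that ended in 4 leave-outs (0.0644 to 0.172). Fancm, the translocase that anchors the complex to DNA, fell by 0.55 under miR-1 (0.00154) and differed by -0.44 under miR-34a (0.0199), a call that ended in 4 leave-outs (0.0533 to 0.0953). Fancc was 7.27 ± 0.03 in control and between 7.09 and 7.44 in the mimic means, with no call.

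Setting each mimic against the mean of the other 6, with no control array in the comparison, tests whether the checkpoint and repair genes differed between mimics. Under miR-1 33 of 36 were lower and 0 higher (13.7% and 15.0% of all genes), with a median of -0.66; Atrip, Rmi2 and Fancl did not pass. The mean that serves as comparison for every other mimic includes miR-1. Against it, 0 were lower and 21 higher under miR-29a (8.26% and 8.80% of all genes), 0 and 19 under miR-145 (8.59% and 10.3%) and 0 and 19 under Let-7b (10.3% and 8.19%). Without miR-145 replicate 3 the miR-145 count was 13, and without Let-7b replicate 1 the Let-7b count was 10. Under Let-7b the genes that stood above the other mimics included Chek2 (0.48), Atm (0.37) and Fancc (0.24) (adjusted p = 0.000131, 0.000142 and 0.00377 in limma). Of these, only Chek2 was called higher under Let-7b against control.

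The 3 mimics between these extremes had few such genes. Under miR-34a, 4 genes were lower and 0 higher (8.18% and 5.90% of all genes): Clspn (-0.38), Cdc25a (-0.44), Fancg (-0.26) and Fancm (-0.29; adjusted p = 0.0142, 7.72e-05, 0.0134 and 0.0387 in limma). The count went to 1 without miR-34a replicate 2 or 3. Under miR-22 Fancg (-0.34) and Fanci (-0.32) were lower and Fancl (0.25) higher (6.33% and 9.45% of all genes, adjusted p = 0.00141, 0.00234 and 0.0326 in limma). Only 1 call was left without miR-22 replicate 3. Against control Fancl was not called under miR-22 (mean 7.62 against 7.57). Under miR-22, 6 genes passed when replicate numbers entered the fit as a block.

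Under miR-365, 6 genes were lower and 3 higher than the other mimics (11.3% and 15.8% of all genes). Fancl (-0.45), Rad54l (-0.35), Rad54b (-0.31), Brca1 (-0.30), Wee1 (-0.25) and Tipin (-0.23) were the lower ones, with adjusted p of 0.000149, 0.0285, 0.0196, 0.0407, 0.0192 and 0.0329 in limma. Chek2 (0.45), Fancm (0.36) and Cdc25a (0.33) were the higher ones (adjusted p = 0.000174, 0.00469 and 0.000616 in limma). Against control only Chek2 of these was called higher under miR-365. Cdc25a had a mean of 11.01 under miR-365 against 11.09 in control, and Fancm of 7.93 against 7.81. The 9 calls went to 5 without miR-365 replicate 1 and to 4 without replicate 3.

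The shift of these genes went along with that of 11 measured markers of dividing cells, none of them among the 36, such as Mki67, Top2a, Cdk1 and Mcm5. Averaged over genes, the dividing-cell markers of the 3 miR-1 samples were -0.68, -0.74 and -1.17 from the control mean on the log2 scale, and the checkpoint and repair genes -0.67, -0.84 and -1.06. The same sample, miR-1 replicate 3, was lowest in both, and it held the lowest miR-1 value in 28 of the 36 genes. Under miR-34a the markers were -0.44, -0.36 and -0.43 and the 36 genes -0.28, -0.40 and -0.32, under miR-22 -0.34, -0.20 and -0.44 against -0.31, -0.20 and -0.37, and under miR-365 -0.54, -0.27 and -0.59 against -0.30, -0.22 and -0.42. Under miR-29a, miR-145 and Let-7b neither mean left the range from -0.14 to 0.04. Of the 11 markers 10 fell under miR-1, 6 under miR-34a, 6 under miR-22 and 8 under miR-365 (10.5%, 6.06%, 5.67% and 8.33% of all genes). Under miR-29a 0 fell, under miR-145 1 and under Let-7b 0 (4.78%, 3.00% and 5.46%). The part of a smaller share of dividing cells in the differences of the 36 genes was not tested.

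Another list that moved with the miR-1 difference was that of 4 epithelial cell markers. Their mean was 0.29, 0.57 and 0.88 above the control mean in the 3 miR-1 samples, with the group mean at 0.58, against group means between -0.04 and 0.06 under the other 6 mimics. Krt8 and Krt18, keratins of simple epithelia, rose under miR-1 by 1.70 and 0.65 on the log2 scale (adjusted p = 4.08e-05 and 0.00114 in limma). Epcam and Cdh1, the defining markers of the list, did not pass and stayed under 6.67 in all 24 transfected values. The part of these markers in the differences of the 36 genes was not tested.

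**Figure D4:**
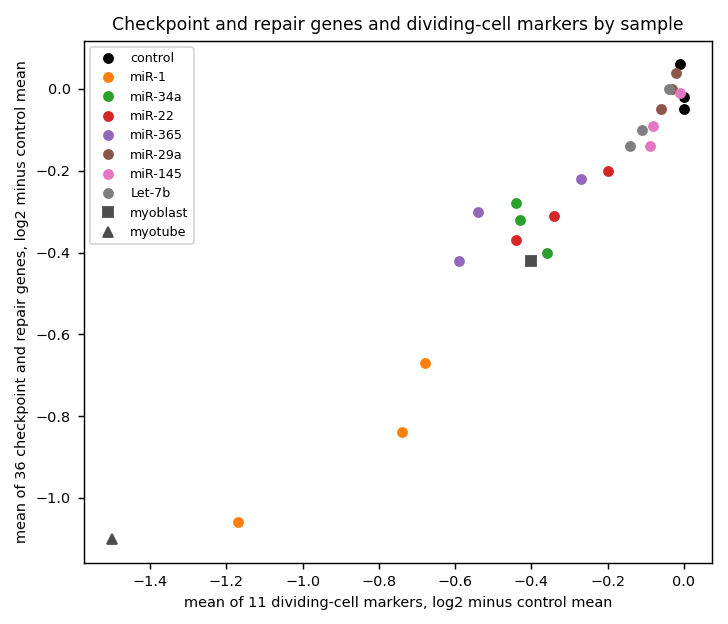
Mean log2 difference from control of the 36 checkpoint and repair genes (vertical axis) and of 11 dividing-cell markers (horizontal axis) in each of the 24 transfected values and in the single myoblast and myotube arrays. The 3 miR-1 samples reach -1.06 and -1.17, miR-34a, miR-22 and miR-365 lie in between and the other mimics lie near control.

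Markers of differentiated muscle did not follow the same order. Of 12 such genes, Myog and Ckm among them, 8 rose under miR-1, 5 under miR-34a, 4 under miR-22, 2 under miR-29a and 1 under miR-145, while 0 passed under miR-365 and 3 fell under Let-7b. Their mean was 0.66, 0.61 and 0.59 above control under miR-1, miR-34a and miR-22. It was 0.12 above control under miR-365, the mimic under which 19 of the 36 checkpoint and repair genes fell. Among all genes 13.2%, 5.62%, 8.82%, 5.54% and 3.85% rose under miR-1, miR-34a, miR-22, miR-29a and miR-145. Under miR-365 11.7% rose, and under Let-7b 5.46% fell.

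In the untransfected cells the 36 genes were lower in the myotube than in the myoblast array. With 1 array each there is no replicate check and no test. The median difference was -0.75, with 34 of 36 below 0, against -0.02 over all genes, and 6 genes were at least 2-fold lower and 0 at least 2-fold higher (2.01% and 2.71% of all genes). Chek1 was 9.58 in the myoblast and 7.77 in the myotube array, 3.50-fold lower. Exo1 went from 8.98 to 7.63 (2.54-fold), Blm from 8.57 to 7.24 (2.50-fold), Rad51ap1 from 8.20 to 6.98 (2.34-fold), Fancd2 from 8.41 to 7.20 (2.32-fold) and Eme1 from 8.71 to 7.65 (2.09-fold). Chek2 (7.52 and 7.69) and Atrip (8.65 and 8.83) were the 2 genes with the higher value in the myotube. The dividing-cell markers had a mean of -0.40 in the myoblast and -1.50 in the myotube array, from the control mean.

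The array labelled myoblast was itself below the transfected control. Its value lay under all 3 control values in 32 of the 36 genes (33.7% of all genes) and in 10 of 11 dividing-cell markers, with a median difference of -0.41 for the 36 genes. Atm differed most, at 8.19 against a control mean of 9.21, and Fancg was the only gene above the control mean (8.75 against 8.62). Its myotube markers, all above the transfected values, had a mean 1.83 above control, against 2.79 in the myotube array. The myotube value was the lowest of all, below the 24 transfected values, in 18 of the 36 genes (15.8% of all genes).

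Genes that differed more between myotube and myoblast also differed more under miR-1, in comparisons that share no array. Over the 36 genes Pearson's r was 0.790 and Spearman's rho 0.774, and without Chek1 0.734 and 0.754 over 35 genes, against 0.461 and 0.408 over all 19938 genes. This is a description across genes, which are not independent replicates. The same r was 0.763 for miR-365, 0.644 for miR-34a, 0.588 for miR-22 and between 0.059 and 0.326 for the other three mimics. Brip1, at -1.60 under miR-1 and -0.67 in the myotube, lay on one side, and Blm, at -0.81 and -1.32, on the other.

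**Figure D5:**
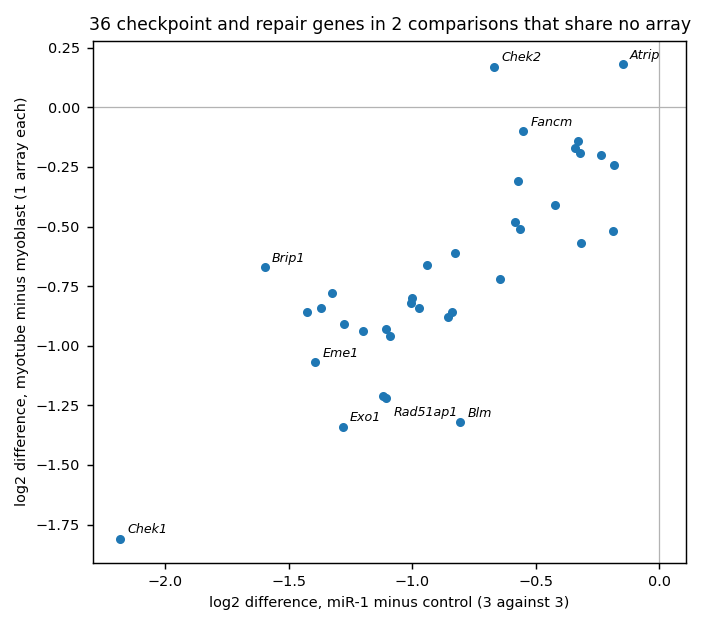
Log2 difference of each of the 36 genes under miR-1 against control (horizontal axis, 3 values against 3) and in the myotube against the myoblast array (vertical axis, 1 array each). Chek1 is lowest on both axes (-2.18 and -1.81), and Chek2 and Atrip are the 2 genes above 0 on the vertical axis.

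The starts of these genes are shown because many fell together. RefSeq (GRCm38.p6) promoters, from 250 bases before to 50 after the start, matched 28 of the 36 genes, with 30 promoters of 32851 in all. A search on both strands, with letters chosen after the values were seen, looked for the E2F forms TTTCCCGC, TTTCGCGC, TTTGCCGC and TTTGGCGC and the core TTCCCGC, which TTTCCCGC contains, since E2F factors are known for switching on genes of S phase. At least 1 of the 4 forms was present in 8 of 30 promoters (26.7%) and in 2.26% of all promoters, the core in 10 (33.3%, against 4.60%), and either in 14 (46.7%, against 5.72%). CCAAT, the box bound by NF-Y, was present in 19 of 30 (63.3%, against 37.4%) and TTTGAA, the CHR element of genes of late cell cycle, in 2 of 30 (6.67%, against 17.9%). Such a match is a description of letters, and no binding was measured. The promoters in all were not matched to the 30 in base composition. The part of E2F factors in the differences of the 36 genes was not tested. Printed 5′ to 3′ along the gene, with E2F letters in capitals, are Chek1 (chr9:36726609-36726908, minus strand; core at 44 from the start), Bard1 (chr1:71102923-71103222, minus strand; form at -209), Fanci (chr7:79392088-79392387, plus strand; core at 19) and Chek2 (chr5:110839733-110840032, plus strand; form at -152). Chek1, Bard1 and Fanci were lowered by 4 mimics each, and Chek2 fell under miR-1 and rose under 2 mimics. All 4 printed promoters hold a match, as did those of 14 of the 28 genes. Rad54l, Brip1, Brca1, Eme1 and Gen1 fell under miR-1 as well, and their promoters held neither a form nor the core.
Chek1: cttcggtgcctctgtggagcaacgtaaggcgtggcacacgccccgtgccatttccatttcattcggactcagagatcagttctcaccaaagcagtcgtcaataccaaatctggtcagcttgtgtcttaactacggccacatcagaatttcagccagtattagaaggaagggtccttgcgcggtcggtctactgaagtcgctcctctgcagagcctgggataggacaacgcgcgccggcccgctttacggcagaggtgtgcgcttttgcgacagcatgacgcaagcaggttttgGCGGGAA
Bard1: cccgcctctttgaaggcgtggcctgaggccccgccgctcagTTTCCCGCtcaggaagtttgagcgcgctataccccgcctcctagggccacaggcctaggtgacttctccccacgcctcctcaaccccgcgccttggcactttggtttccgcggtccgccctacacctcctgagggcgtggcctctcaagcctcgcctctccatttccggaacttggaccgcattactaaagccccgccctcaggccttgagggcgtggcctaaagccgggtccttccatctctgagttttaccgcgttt
Fanci: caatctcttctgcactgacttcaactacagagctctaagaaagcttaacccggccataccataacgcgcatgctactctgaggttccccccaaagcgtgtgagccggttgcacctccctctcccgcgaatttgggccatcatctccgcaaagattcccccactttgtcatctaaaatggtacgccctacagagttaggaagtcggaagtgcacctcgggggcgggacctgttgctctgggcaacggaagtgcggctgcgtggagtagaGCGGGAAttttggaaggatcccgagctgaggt
Chek2: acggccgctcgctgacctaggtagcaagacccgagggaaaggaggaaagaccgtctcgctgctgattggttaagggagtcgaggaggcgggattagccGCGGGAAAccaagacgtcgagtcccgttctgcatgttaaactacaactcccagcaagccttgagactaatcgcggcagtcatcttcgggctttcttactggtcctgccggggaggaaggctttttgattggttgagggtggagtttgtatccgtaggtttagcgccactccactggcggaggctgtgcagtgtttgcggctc
The Chek2 promoter thus holds the same TTTCCCGC letters as that of Bard1, read from the other strand. Both genes fell under miR-1, Chek2 by 0.67 and Bard1 by 1.32 on the log2 scale. Under miR-365 Bard1 fell and Chek2 rose, the latter call being lost without miR-365 replicate 3 (adjusted p = 0.0627 in limma).

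Other genes of the same pathways went the same way under miR-1. Of 19 further checkpoint partners 12 fell and 0 rose, led by Etaa1, another activator of Atr (-1.06, adjusted p = 5.19e-09 in limma), and Cdc25b, a phosphatase (-1.02, 1.49e-06). Of 34 further recombination and Fanconi partners 23 fell and 0 rose, led by Fignl1, an ATPase that acts on recombinase filaments (-1.33, 6.18e-07), and Mms22l, which aids recombination at stalled forks (-1.30, 3.38e-08). Under miR-34a, miR-22 and miR-365 8, 6 and 6 of the checkpoint partners fell and 0, 0 and 2 rose. Of the recombination partners 8, 10 and 12 fell and 0, 0 and 3 rose. Among all genes 6.06%, 5.67% and 8.33% fell under these mimics and 5.62%, 8.82% and 11.7% rose. Under miR-1 10.5% of all genes fell and 13.2% rose.

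Genes of other repair routes were counted in the same way. Of 8 end joining genes 1 fell and 0 rose under miR-1, Xrcc6, a subunit of Ku (-0.27, adjusted p = 0.0323 in limma), with a median of 0.11 over the 8. Of 12 nucleotide excision genes 0 fell and 5 rose: Xpa (0.49, 0.000470), Xpc (0.25, 0.0235), Ercc3 (0.33, 0.0207), Ercc5 (0.27, 0.0476) and Ddb1 (0.21, 0.000845). Of all genes 10.5% fell and 13.2% rose under miR-1, and the difference between these lists was not tested. Under miR-365 8 of the 12 rose and 1 fell (11.7% and 8.33% of all genes). Of 5 mismatch repair genes 3 fell, Msh6 (-0.97, 1.40e-06) and Pms1 (-0.39, 0.000761) most, and Mlh3 rose (0.38, 0.000366). Of 15 base excision genes 6 fell, the glycosylases Neil3 (-1.31, 3.38e-07) and Ung (-0.45, 0.00119) most, and the ligase Lig3 (0.34, 0.00828) and the polymerase Polb (0.41, 0.00101) rose.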

How the data were processed

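Total RNA of transfected and untransfected C2C12 cells was measured on Affymetrix whole-transcript arrays, 29 in all. The authors deposited 1 log2 value per probe set, made with RMA (background correction, quantile normalization and summary) in Affymetrix Expression Console 1.1, per the submitters' processing notes; filters and a genome build are not given in the sources used here. The platform annotation gives 21789 of 35556 probe sets 1 gene symbol, 1621 more than 1 and 12146 none. Symbols of 21698 were checked through Entrez identifiers in RefSeq, and 0 changed. The probe set with the highest mean stood for each of 19938 genes; 33 of the 36 measured genes described here have a single probe set. With 1 array or 3 values a group, the number of arrays limits the precision.

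The 3 control values are means of a control array and its like-numbered technical repeat, between which the 36 genes differed by at most 0.22. A linear model with group as its only term was fitted to 24 values in 8 groups in limma 3.58.1 (R 4.3.3) with a variance trend, and p-values were adjusted by Benjamini-Hochberg over all genes within each comparison, at 0.05, 2-sided. The test was checked on simulated data with independent values, so the check does not cover the correlation by replicate number seen in these data. A difference is in log2 units and a fold is its antilog. Genes are called lower or higher, fell or rose, only past that threshold.

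The genes and the lists, markers and motifs set beside them were chosen with earlier results of these data known. Values by sample are given for the 3 lowest called genes of each mimic, each gene called higher, each called lower under at least 5 mimics and each at least 2-fold apart between myotube and myoblast. Of other pathway genes, the 2 with the largest called change per list under miR-1 and those called higher there are named.

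Replicate numbers pair the samples if all 3 residual correlations with the control exceed 0.1, which held for miR-34a (0.673, 0.528 and 0.206), miR-22 (0.310, 0.122 and 0.210), miR-365 (0.616, 0.357 and 0.301) and miR-29a (0.316, 0.155 and 0.182), from the data and not from a label that names a shared batch. Alternatives were the replicate block, other treatments of technical repeats, only 2 groups in the fit, no dim genes (lowest 40%), no trend, a further quantile normalization, centring on the median, the mean of all probe sets and leaving out each replicate. Leaving out miR-145 replicate 3 from every comparison was added after seeing the data. Figures were drawn with matplotlib 3.10.9 in Python 3.11.15.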

Additional observations from a re-analysis of the deposited data

How the results depend on the processing

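Of the 92 calls of a gene under a mimic, 60 held under all of up to 16 alternatives and 0 changed direction. The calls lost under at least 1 alternative were 5 of 33 under miR-1, 10 of 18 under miR-34a and 6 of 13 under miR-22. Under miR-365, miR-29a and Let-7b they were 8 of 20, 2 of 5 and 1 of 3. The same 60 calls held in all leave-outs of 1 value, so each lost call was lost in at least 1 leave-out. With the replicate number as a block 92 of 92 calls stayed. The miR-145 count of 0 became 2 with the replicate block and 1 with technical pairs as a random block, with the lowest 40% of genes left out, with a further quantile normalization and with arrays centred on their median. The Let-7b count of 3 became 5 with only the 2 groups in the fit (Exo1 and Brip1 added), and the miR-22 count of 3 against the other 6 mimics became 6 with the replicate block.

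Leaving out 1 value gave 9 to 16 calls for miR-34a against control, 8 to 14 for miR-22, 12 to 22 for miR-365, 3 to 5 for miR-29a and 0 to 1 for miR-145. Against the other 6 mimics the ranges were 1 to 3 for miR-34a, 1 to 3 for miR-22, 4 to 8 for miR-365 and 10 to 14 for Let-7b. In 23 of 24 values the residuals correlated best with values of the same number, a hint from the data. The main fit and the leave-outs did not use this pairing. With the block, miR-34a had 20 calls, miR-22 16 and miR-365 22, against 18, 13 and 20 in the main fit. For miR-1, miR-145 and Let-7b not all 3 correlations exceeded 0.1, and their counts with the block were 33, 2 and 3. The median difference between myotube and myoblast was -0.69 with the mean of all probe sets and -0.77 with centred arrays, against -0.75.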
